A study of Homo sapiens with 10 samples.

Results

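The small nucleolar RNA (snoRNA) genes were described here in differentiated cells of human embryonic stem cell origin, in the deposited expression table of a study of the RNA-binding protein DAZL. Members were selected on their measured level: every gene named SNORA or SNORD followed by a number whose level in TPM (read coverage per length of transcript, scaled so that all libraries have the same total) averaged at least 1 over 4 libraries. Of the 473 genes with such a name, 81 were members, 49 of the box C/D class (SNORD) and 32 of the H/ACA class (SNORA), among 64940 genes in all. Their level is therefore given as a description, and nothing is drawn from it being above 1.

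All libraries came from total RNA of cells derived from H9, an established line of human embryonic stem cells. Of the 10 samples of the series, 4 had values in this table. The 2 control libraries carry the wild-type genotype and are labelled as spontaneously differentiated cells, whereas the series describes them as wild-type primordial germ cell-like cells (PGCLCs). The 2 oeDAZL libraries are labelled as hPGCLCs that overexpress DAZL. In the study's general method for overexpression, cells differentiating with BMP4 and BMP8a were transduced with lentivirus. The other 6 samples are miRNA libraries and were not analysed here. Nothing in the labels says that the replicates were separate cultures, so the p-values measure the spread between these libraries, which may be technical.

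Control libraries had DAZL at 0 and 0.0333 TPM, and both oeDAZL libraries had far more, at 102 and 101 TPM, as their labels say. On the log2(TPM + 1) scale the difference was 6.65 (standard error 0.11, limma adjusted p = 1.76e-05). Markers of primordial germ cells were low in both groups. NANOS3, a germ cell RNA-binding protein, stood at 1.39 and 1.66 TPM in control and 1.07 and 0.732 TPM in oeDAZL, SOX17 between 2.52 and 3.35 TPM over the 4 libraries, and DDX4, a later germ cell helicase, was listed at 0 in all 4. TFAP2C, which amnion also expresses, was the most abundant of the 8 germ cell markers at 53.9, 49.1, 44.3 and 50.4 TPM, and none of the 6 tested passed the test. The amnion and trophoblast gene HAND1 stood at 958 and 1042 TPM in control and 1250 and 1247 TPM in oeDAZL. TFAP2C apart, every germ cell marker stood under 8 TPM. The 4 pluripotency genes summed to 495 and 442 TPM in control and 443 and 424 TPM in oeDAZL, with LIN28A the most abundant and none called. Among the 3 tested, the log2 fold change was 0.79 for POU5F1, -0.60 for SOX2 and -0.14 for LIN28A. POU5F1 thus went against the sum, at 13.6 and 10.6 TPM in control and 22.4 and 20.4 TPM in oeDAZL (limma adjusted p = 0.0896).

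Among markers of other cell types 4 genes were called lower and none higher, at a cut that 0.563% of all tested genes passed lower and 0.126% higher. The 5 mesoderm and mesenchyme genes summed to 1317 and 1134 TPM in control and 681 and 709 TPM in oeDAZL, with COL1A1 the most abundant, none listed at 0 in all 4 libraries, and 1 of the 4 tested, COL3A1, called lower. COL3A1, a fibrillar collagen, fell from 583 and 479 TPM to 224 and 220 TPM, a log2 fold change of -1.25. CGA, a trophoblast hormone subunit, was called lower among the 6 amnion and trophoblast genes, whose sum went from 1897 and 1992 TPM to 2229 and 2215 TPM with HAND1 the most abundant. PAX6 was called lower among the 2 tested of 3 neural genes, which summed to 15, 8.86, 6.40 and 7.53 TPM with MAP2 the most abundant, and AFP among the 3 endoderm genes, which summed to 81.8, 38.6, 33.8 and 44.7 TPM with TTR the most abundant. PAX6 (3.83 and 1.14 TPM against 0.0967 and 0.558 TPM) passed the filter of 1 TPM through control alone, so its call is not independent of the filter. AFP (36.3 and 13.1 TPM against 8.91 and 11.6 TPM) was set apart mostly by control replicate 1. No gene of these 3 lists was at 0 in all 4 libraries. In bulk libraries fewer cells of a type and less RNA per cell cannot be told apart, and the part of these differences in the snoRNA values was not tested.

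SnoRNAs are short RNAs of the nucleolus that direct chemical changes of other RNAs, above all ribosomal RNA, by base pairing. Box C/D snoRNAs carry a C box and a D box and guide the 2′-O-methylation done by fibrillarin, whereas H/ACA snoRNAs fold into hairpins that end in an ACA triplet and guide the conversion of uridine to pseudouridine by dyskerin. In human cells most of them are cut out of introns of host genes, many of which encode ribosomal proteins or serve as hosts and little else.

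Sequences of the members on which the description turns are given below from GENCODE release 44 on hg38, 5′ to 3′ on the gene's own strand in DNA letters. The capitals mark the first TGATGA as the C box, where those exact letters occur, the last CTGA as the D box, or an ACA within the last 8 bases. SNORD30 was the member with the highest mean, lies at chr11:62853663-62853732 on the minus strand in an intron of the canonical transcript of SNHG1, overlaps exons of other transcripts of it, and guides methylation of large-subunit ribosomal RNA. SNORD104, at chr17:64146083-64146152 on the plus strand in an intron of SNHG25, was the only member above its host gene. SNORA73B, at chr1:28508559-28508762 on the plus strand in an intron of SNHG3, had the highest mean of the H/ACA members and is known for a part in processing of ribosomal RNA.
SNORD30: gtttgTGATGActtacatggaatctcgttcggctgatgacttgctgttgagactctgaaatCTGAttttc
SNORD104: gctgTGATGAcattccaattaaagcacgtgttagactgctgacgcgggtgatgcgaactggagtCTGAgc
SNORA73B: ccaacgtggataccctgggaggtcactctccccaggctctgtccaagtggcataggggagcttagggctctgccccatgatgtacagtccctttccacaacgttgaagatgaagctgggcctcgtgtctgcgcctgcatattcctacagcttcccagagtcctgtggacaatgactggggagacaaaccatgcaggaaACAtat

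The members called lower in oeDAZL were SNORA55 (ENSG00000201457.1) at chr1:39567374-39567508, minus strand, within PABPC4; SNORA71A (ENSG00000225091.3) at chr20:38427309-38427442, minus strand, within SNHG17; SNORD63 (ENSG00000206989.1) at chr5:138561043-138561110, minus strand, within HSPA9; and SNORD116-2 (ENSG00000207001.1), within SNHG14, whose sequence is not given. All 4 lie in introns or outside of the host's canonical transcript and overlap an exon of another annotated transcript of it. For SNORD63 that transcript is annotated as a retained intron. Reads of such transcripts may cover the 4 members too, and whether they do was not tested. Counting these 4, 35 members overlap an exon of some transcript of their host.
SNORA55: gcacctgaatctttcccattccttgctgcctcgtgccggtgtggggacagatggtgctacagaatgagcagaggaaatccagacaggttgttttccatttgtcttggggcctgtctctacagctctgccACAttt
SNORA71A: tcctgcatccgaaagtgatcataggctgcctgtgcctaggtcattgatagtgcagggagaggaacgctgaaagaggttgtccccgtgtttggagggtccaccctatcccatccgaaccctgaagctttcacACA
SNORD63: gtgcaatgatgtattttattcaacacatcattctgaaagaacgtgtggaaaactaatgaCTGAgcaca

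The boxes that define each class were present in most members. TGATGA occurred in 40 of 49 box C/D members (81.6%) and in 75.2% of the other 234 annotated SNORD genes. CTGA occurred somewhere in all 49 and in 97.4% of the others. An ACA within the last 8 bases was found in 31 of 32 H/ACA members (96.9%) and in 88.1% of the other 118 annotated SNORA genes. The triplet GTT, which DAZL is known to bind in RNA as GUU, occurred on the annotated strand in 33 box C/D members (67.3%, against 55.1% of the other SNORD genes) and in 30 H/ACA members (93.8%, against 93.2% of the other SNORA genes). The number of GTT triplets and the log2 fold change had a Spearman correlation of 0.19 over the 49 box C/D members, -0.23 over the 32 H/ACA members and -0.02 over all 81, given as a description over genes that share libraries and often hosts.

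SnoRNA genes were listed in the table far more often than they had a level. Of the 473 genes, 183 were at 0 in all 4 libraries, 209 lay between 0 and 1 TPM and 81 (17.1%) reached 1 TPM, beside 25.7% of all genes, 66.2% of those annotated as protein-coding and 12.4% of those annotated as lncRNA. The shares were 15.6% of 315 SNORD genes and 20.3% of 158 SNORA genes. The SNORD genes include tandem copies, 9 of SNORD113, 30 of SNORD114 and 48 of SNORD115, none of which reached 1 TPM. They also include 30 copies of SNORD116, of which 13 did. The order of the 2 shares therefore depends on how such copies are counted. By annotated class, 10.3% of 941 snoRNA genes reached 1 TPM, beside 2.16% of 1901 snRNA genes, 5.86% of 1877 miRNA genes and 8.16% of 49 scaRNA genes. Among the 473 genes, 40 lie outside of the primary annotation and all of these were at 0. Levels stayed low, since 23 members reached a mean of 5 TPM and 5 a mean of 10 TPM.

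The 8 members with the highest means were almost all box C/D RNAs. SNORD30 stood at 18.8 and 14.1 TPM in control and 12.7 and 13.5 TPM in oeDAZL, so both oeDAZL libraries lay below both control libraries. SNORD38A, a guide for large-subunit ribosomal RNA, stood at 17.6 and 14.3 TPM in control and 7.58 and 10.9 TPM in oeDAZL, without overlap. SNORD62B, a guide for small-subunit ribosomal RNA within PRRC2B, stood at 13.7 and 15.8 TPM against 10.9 and 8.31 TPM. These 3 guides were lower in both oeDAZL libraries, as were 38.4% of all tested genes. SNORD62B has an identical copy in the same host, so its values are uncertain, as described below. SNORA73B, the single H/ACA RNA among the 8, stood at 11.2 and 10.8 TPM in control and 9.23 and 9.48 TPM in oeDAZL. SNORD83A, within the ribosomal protein gene RPL3, stood at 9.60 and 8.81 TPM against 7.27 and 8.10 TPM. SNORD19, within GNL3, stood at 11.2 and 10.5 TPM against 7.93 and 4.09 TPM. These also did not overlap, while SNORD104 and SNORD6 went the other way and are given with the comparison of the groups. Just inside the threshold lay SNORA68B (mean 1.01 TPM), SNORD116-15 (1.06 TPM) and SNORD116-8 (1.09 TPM), and just outside it SNORA2A (0.960 TPM), SNORD116-30 (0.954 TPM) and SNORD116-16 (0.941 TPM).

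**Figure D1:**
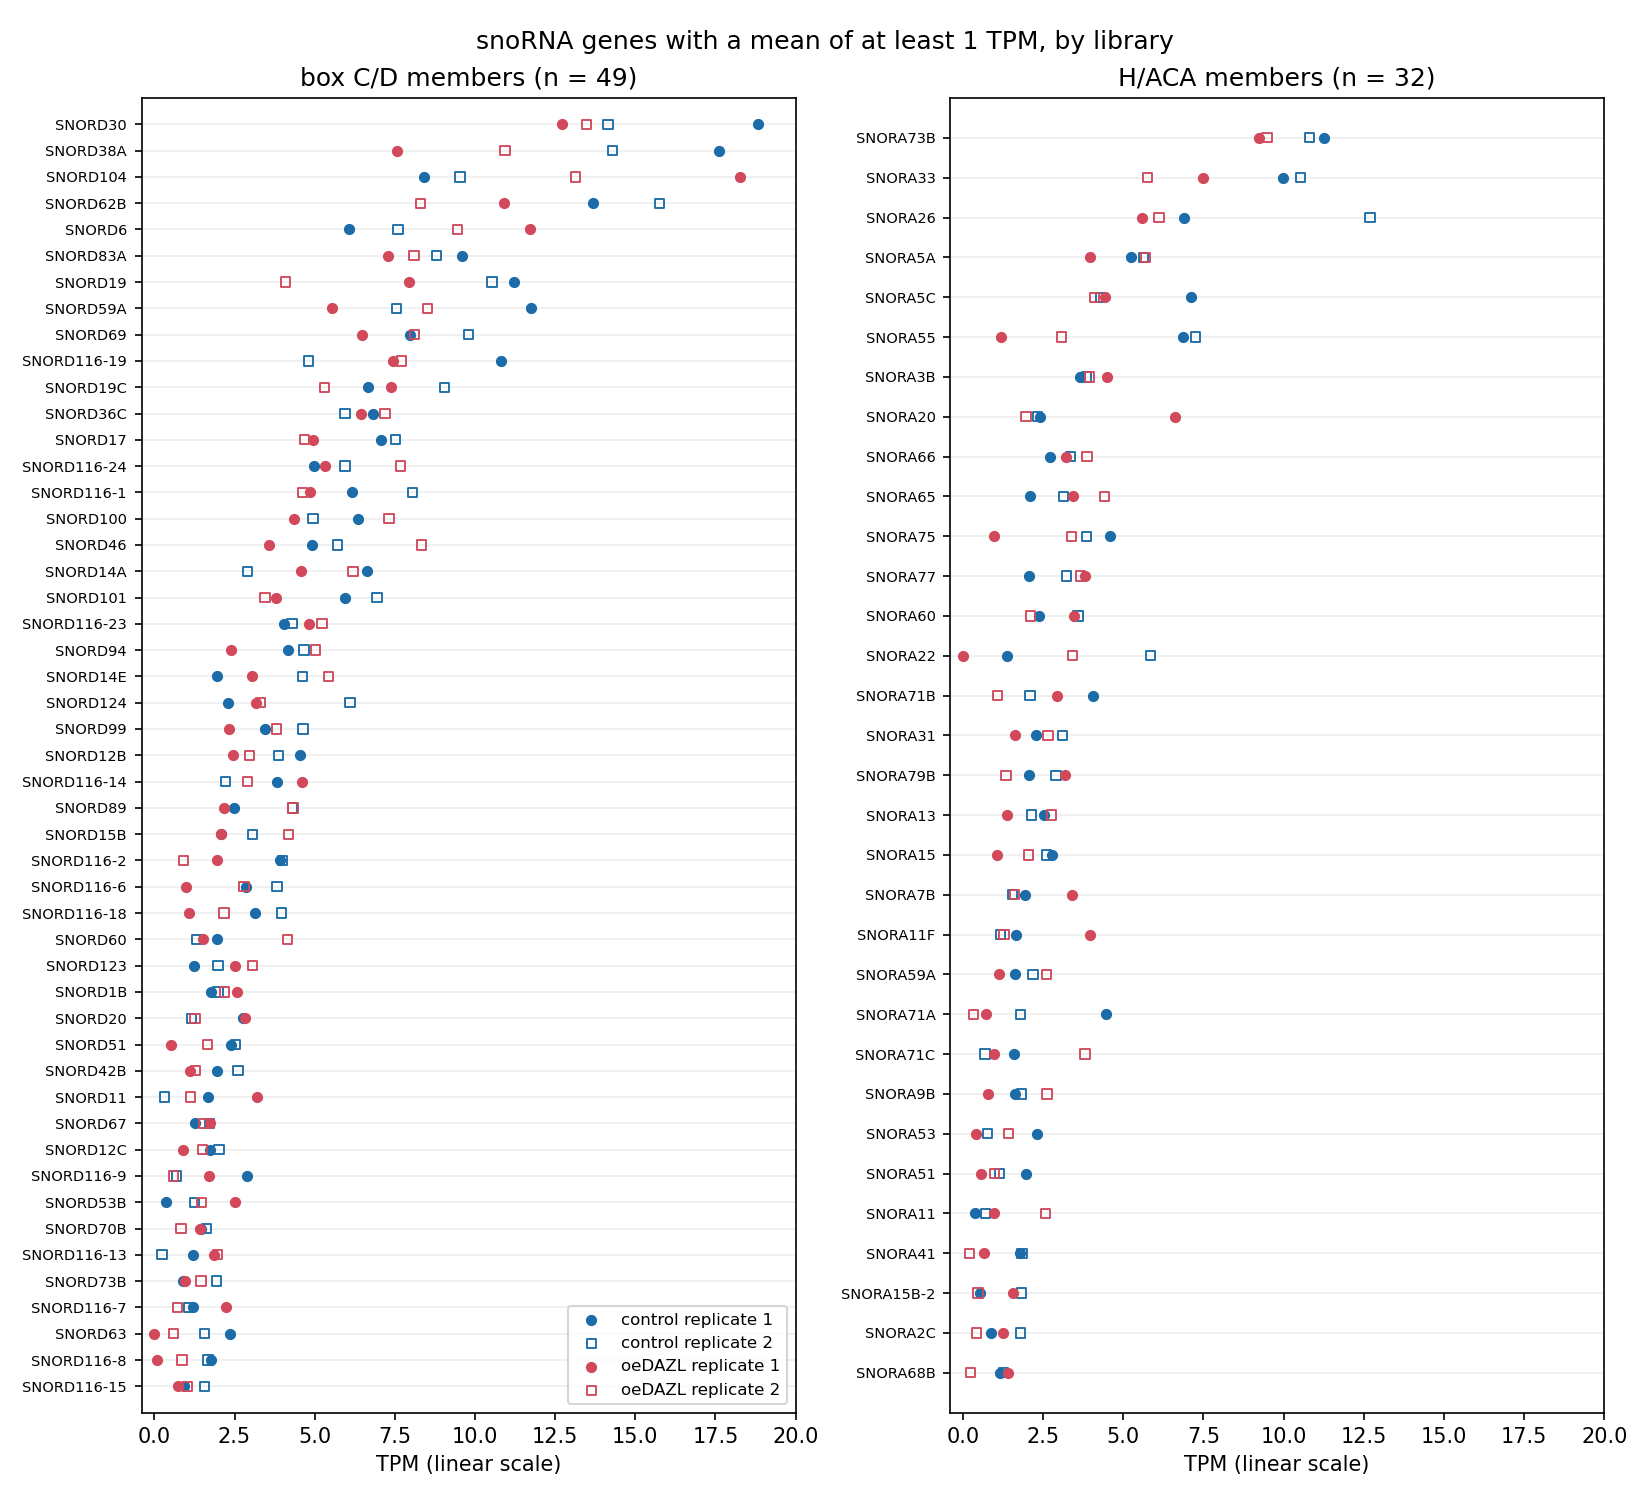
TPM of each of the 49 box C/D (left) and 32 H/ACA (right) members, ordered by mean, with 1 point for each of the 4 libraries (blue, control; red, oeDAZL; filled circle, replicate 1; open square, replicate 2). SNORD30 heads the box C/D members with a mean of 14.8 TPM and SNORA73B the H/ACA members with 10.2 TPM, and points of the same color often lie as far apart as points of different colors.

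The snoRNAs that are best known from abundant, separately transcribed genes were not among the members. SNORD3A, the U3 RNA needed for small-subunit ribosome assembly, stood at 0.540, 1.02, 0.232 and 0.441 TPM. SNORD118, the U8 RNA of large-subunit assembly, stood at 0.0455, 0.0265, 0.0273 and 0.0349 TPM, and SNORD13 was listed at 0 in all 4 libraries. Other abundant noncoding RNAs varied. RMRP averaged 0.391 TPM, RPPH1, the RNA of ribonuclease P, 0.599 TPM and RN7SK 1.52 TPM, and the Y RNAs RNY1 and RNY3 were listed at 0, whereas the signal recognition particle RNAs RN7SL1 and RN7SL2 averaged 18.8 and 20.4 TPM. How these values relate to the abundance of the RNAs in the cells was not tested. Of the intron-encoded SNORD14 genes, SNORD14A (6.63, 2.90, 4.57 and 6.20 TPM) and SNORD14E (1.95, 4.62, 3.04 and 5.43 TPM) were members, whereas SNORD14B, SNORD14C and SNORD14D averaged 0.0392, 0.00901 and 0.00840 TPM.

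SnoRNAs within the same host gene often differed widely in level. The hosts of members that contain more than 1 snoRNA gene number 34. Of the 180 snoRNA genes in them 59 were members and 102 lay under 0.1 TPM. SNHG14 alone holds 78 of these genes, with 13 of the members and 54 of those under 0.1 TPM. The difference within a host is plainest in SNHG1, where SNORD30 averaged 14.8 TPM while the other 5 snoRNA genes averaged at most 0.0483 TPM. TAF1D, which encodes a factor of RNA polymerase I, contains 8, of which SNORD6 averaged 8.71 TPM and the other 7 lay under 0.1 TPM. SNORA73B averaged 10.2 TPM beside SNORA73A at 0.0698 TPM in SNHG3. SNORD36C averaged 6.60 TPM beside SNORD36B at 0.000342 TPM in RPL7A. Not every host had such a gap, since 26 of the 34 had a snoRNA gene under 0.1 TPM. In RPS12 all 3 snoRNA genes were members, as were all 2 in EEF1B2 and all 2 in CCT6P1.

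Genes with the same sequence also differed. Of the 81 members, 5 have an identical copy elsewhere among the annotated snoRNAs and 18 have another snoRNA within 5 edits, 12 of them SNORD116 copies. Only reads that mapped to a single place were kept by the authors, so reads from within an identical copy cannot be placed. In copies within 5 edits this holds for reads that miss the differing bases. The values of both kinds are therefore uncertain. SNORD62B averaged 12.2 TPM and its identical copy SNORD62A, in the same host, 0.743 TPM. SNORD116-19 averaged 7.69 TPM and SNORD116-17 0.717 TPM. SNORA15B-2 averaged 1.10 TPM and SNORA15B-1 0.655 TPM, in the chaperonin pseudogenes CCT6P1 and CCT6P3.

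The classes differed in length, and their levels are given as a description of genes chosen by level. Box C/D members had a median mean of 3.46 TPM (1.06 to 14.8 TPM) and a median length of 86 bases, and H/ACA members a median of 2.39 TPM (1.01 to 10.2 TPM) and 133.5 bases. The lower quartiles were close, at 1.74 and 1.75 TPM. A mean of 5 TPM was reached by 19 box C/D and 4 H/ACA genes. All tested genes, by comparison, had a median of 15.6 TPM and an annotated exonic length of 4574 bases in the median. Within the classes length and mean TPM were weakly related (Spearman -0.19 over 49 box C/D and -0.08 over 32 H/ACA members, as a description). The summed TPM of box C/D members was 240 and 237 in control and 201 and 217 in oeDAZL, and that of H/ACA members 104 and 112 in control and 85.8 and 89.5 in oeDAZL. Box C/D members thus carried 2.30, 2.12, 2.34 and 2.43 times the sum of H/ACA members in the 4 libraries.

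In the median, members lay closer to the next exon downstream than other snoRNA genes did, with wide and overlapping quartiles. Of the members, 65 lay in an intron of the host's canonical transcript. The distance to the next exon downstream had a median of 97.5 bases over the 34 box C/D members so placed, against 268.5 bases over 164 other SNORD genes. H/ACA members had a median of 196 bases (31 members) against 521 bases over 91 other SNORA genes. The quartiles were 80.25 and 685 bases against 105.25 and 980.5 bases for box C/D. For H/ACA they were 114 and 873 bases against 181 and 2304 bases. Upstream, the median distance to an exon was 250.5 against 266.5 bases for box C/D and 398 against 602 bases for H/ACA. Over all annotated transcripts of the host, 45 members lay in introns alone and 35 overlapped an exon of some transcript, 6 of them only through transcripts annotated as retained introns. Members of the first kind had a median of 3.28 TPM and those of the second 2.59 TPM.

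Values of members varied more between replicate libraries than those of other genes. The absolute difference between the replicates on the log2(TPM + 1) scale, averaged over both groups, had a median of 0.44 over the members, 0.43 over box C/D and 0.48 over H/ACA members, and 0.14 over all 16687 tested genes. At like levels the gap was smaller but remained. Between 1 and 2 TPM the median was 0.52 over 26 members and 0.29 over 2179 other genes, between 2 and 5 TPM 0.48 over 32 members and 0.24 over 2517 others, and between 5 and 15 TPM 0.28 over 23 members and 0.16 over 3434 others. Those other genes were longer, with median lengths of 2100, 3320.5 and 4928 bases. The order of the members by level was shared by the replicates more closely among box C/D RNAs (Spearman 0.86 in control and 0.82 in oeDAZL, n = 49) than among H/ACA RNAs (0.70 and 0.49, n = 32), as a description across genes. Levels of H/ACA members spanned less, with quartiles of 1.75 and 3.30 TPM against 1.74 and 6.06 TPM. The part of this narrower span in the correlations was not tested. In oeDAZL the median difference was 0.67 for H/ACA and 0.45 for box C/D members, and in control it was 0.29 for both. At like levels the classes did not keep an order: averaged over both groups it was 0.58 for H/ACA and 0.44 for box C/D members between 1 and 2 TPM, 0.48 for both between 2 and 5 TPM, and 0.23 for 4 H/ACA and 0.31 for 19 box C/D members between 5 and 15 TPM.

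The 5 members with the largest difference between replicates included 4 H/ACA RNAs. SNORA22, within CCT6P1, stood at 1.36 and 5.86 TPM in control and at 0 and 3.42 TPM in oeDAZL. SNORA20, within the chaperonin gene TCP1, stood at 2.40 and 2.33 TPM in control but at 6.62 and 1.96 TPM in oeDAZL. SNORA75, within the nucleolin gene NCL, stood at 4.59 and 3.85 TPM against 0.963 and 3.38 TPM. In SNORA20 and SNORA75 oeDAZL replicate 1 alone lay far from the other 3 libraries, and in SNORA22 the replicates differed in both groups. SNORA71C went from 1.58 and 0.691 TPM to 0.962 and 3.81 TPM, and SNORD116-9 from 2.88 and 0.681 TPM to 1.70 and 0.596 TPM. The groups overlapped in all but SNORA75. Of the 324 member values, 2 were listed at 0, for SNORA22 and SNORD63 in oeDAZL replicate 1.

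The comparison of oeDAZL with control asked whether these snoRNAs changed with DAZL. Genes were called at a fold change of at least 2 on the log2(TPM + 1) scale, which understates the change of low genes, with limma P no larger than 0.05 before adjustment. Of the 81 members, 4 were called lower (SNORA55, SNORA71A, SNORD63 and SNORD116-2), beside 0.563% of all 16687 tested genes. None was called higher, beside 0.126% of all tested genes, so that 4 were called in either direction, beside 0.689%. At an unadjusted P of at most 0.05 alone, 17 members were lower (15.2% of all tested genes were) and 3 higher (5.02%). No member passed a Benjamini-Hochberg adjusted limma p of 0.05, the smallest being 0.104, beside 0.018% of all tested genes that passed it higher and 0.012% lower. SNORA71A and SNORD63 reached a mean of 1 TPM through the control libraries alone, so the values that made them members are those in which they were high, and their calls are not independent of that selection. Members are low and vary more than most tested genes, and the share called among other genes of like level and spread was not computed. The 4 calls are given as a count beside a background and not as a result about snoRNAs.

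SNORA55, an H/ACA RNA within the gene of the poly(A)-binding protein PABPC4, stood at 6.85 and 7.26 TPM in control and at 1.19 and 3.08 TPM in oeDAZL. The groups were far apart and the log2 fold change was -1.43 (standard error 0.30; limma adjusted p = 0.104). Without oeDAZL replicate 1 it was -0.98 and no longer called. SNORA71A, within SNHG17, stood at 4.46 and 1.80 TPM against 0.724 and 0.324 TPM. In TPM, its control libraries differed from each other by more than the lower of them did from either oeDAZL library. The log2 fold change was -1.37, and leaving out control replicate 1 brought it to -0.89, under the fold required.

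SNORD63, which guides methylation of large-subunit ribosomal RNA and lies within the chaperone gene HSPA9, stood at 2.36 and 1.56 TPM in control and at 0 and 0.598 TPM in oeDAZL. The log2 fold change was -1.21. Without control replicate 1 it stayed past the fold required (-1.02) but had an unadjusted limma P above 0.05, in a fit where control had a single library and so no spread of its own. Without oeDAZL replicate 1 it was -0.88 and not called. SNORD116-2 stood at 3.91 and 3.99 TPM in control and at 1.94 and 0.911 TPM in oeDAZL. Its control libraries were alike and both oeDAZL libraries lay below them. The log2 fold change was -1.06. Leaving out oeDAZL replicate 2 brought it to -0.75 and quantile normalization to -0.90, and it was called in neither. Leaving out oeDAZL replicate 2 also raised the number of members called to 9 lower and 4 higher, while the calls over all tested genes rose from 94 to 187 lower and from 21 to 45 higher.

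Of the members, 27 had both oeDAZL libraries below both control libraries, beside 38.4% of all tested genes, and 11 had both above, beside 16% of all tested genes. Among the former, SNORA41, within the translation factor gene EEF1B2, had the next lowest log2 fold change and stood at 1.78 and 1.84 TPM in control and 0.657 and 0.202 TPM in oeDAZL. Its log2 fold change was -0.99, just under the threshold, and it was called with TPM rescaled without mitochondrial genes (-1.06), with a pseudocount of 0.1 (-2.00), without control replicate 1 (-1.01) and without oeDAZL replicate 1 (-1.23). On the log2(TPM + 1) scale, with deposited TPM and all libraries, the 5 with the highest log2 fold change among the latter were short of a fold change of 2. SNORD104, a guide for large-subunit ribosomal RNA, stood at 8.40 and 9.53 TPM in control and 18.3 and 13.1 TPM in oeDAZL (log2 fold change 0.73, limma adjusted p = 0.116). SNORD6 stood at 6.06 and 7.60 TPM against 11.7 and 9.46 TPM (log2 fold change 0.57). These were the most abundant members on the higher side. SNORD116-13 stood at 1.21 and 0.239 TPM against 1.86 and 1.97 TPM, with a log2 fold change of 0.82. It was called under quantile normalization (1.06) and without control replicate 1 (1.24), passed the fold alone with a pseudocount of 0.1 (1.6), and dropped to 0.40 without control replicate 2. SNORA11, within MAGED2, stood at 0.374 and 0.694 TPM against 0.984 and 2.58 TPM (0.80; 1.23 without oeDAZL replicate 1 and 0.38 without oeDAZL replicate 2). SNORD53B, within WDR43, stood at 0.356 and 1.24 TPM against 2.51 and 1.46 TPM (0.75). It ranged widely with the libraries used, being 1.12 without control replicate 2 and 1.01 without oeDAZL replicate 2. It was 0.39 without control replicate 1 and 0.50 without oeDAZL replicate 1. With a pseudocount of 0.1 SNORA11 stood at 1.47 and SNORD53B at 1.37, both past the fold alone. SNORA41 had a group mean of at least 1 TPM in control alone, and SNORD116-13, SNORA11 and SNORD53B in oeDAZL alone.

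**Figure D2:**
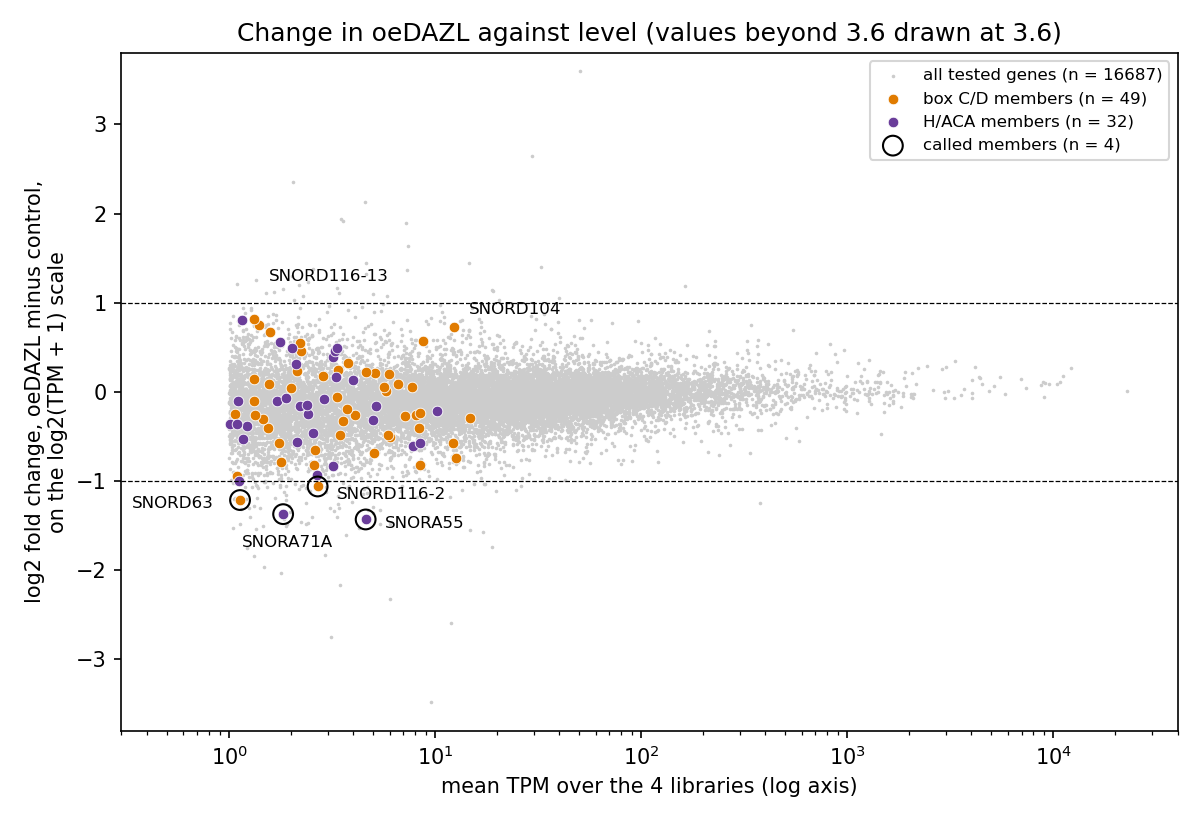
Log2 fold change in oeDAZL on the log2(TPM + 1) scale against mean TPM on a log axis, for all tested genes (grey), box C/D members (orange) and H/ACA members (purple), with the 4 called members circled and dashed lines at a fold change of 2. All 4 circled members lie below the lower line, SNORA55 lowest at -1.43; the gene drawn at the upper limit is DAZL.

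The median log2 fold change was -0.22 over the members, -0.23 over box C/D and -0.19 over H/ACA members, and -0.08 over all tested genes. With median-of-ratios scaling it was -0.14 over the members and -0.0026 over all tested genes, and with quantile normalization -0.073 and 0.0061. On the deposited scale it was below 0 for 51 of 81 members (63%), beside 65.3% of all tested genes. Box C/D members ranged from -1.21 to 0.82 and H/ACA members from -1.43 to 0.80. The summed TPM had a log2 ratio of oeDAZL to control of -0.19 for box C/D and -0.30 for H/ACA members. All 5967 genes of short RNA classes, snoRNAs included, also summed lower in oeDAZL, with 1404 and 1354 TPM in control and 1148 and 1190 TPM in oeDAZL. Mitochondrial genes took 12.6% and 13.4% of TPM in control and 14.1% and 13.9% in oeDAZL. No difference between the classes was tested, since members are not replicates and many share a host. Group means of at least 1 TPM were held in both groups by 68 members, in control alone by 9 and in oeDAZL alone by 4, and 55 members reached 1 TPM in all 4 libraries.

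The SNORD116 family formed the largest block. Its copies lie in tandem within SNHG14, the noncoding gene downstream of SNRPN in the imprinted Prader-Willi region, and have no established target in ribosomal RNA. Of 30 copies 13 were members, whereas none of 48 copies of SNORD115, whose block follows in the same gene, reached 1 TPM and 45 were listed at 0. Copies of the other large tandem families, 9 of SNORD113 and 30 of SNORD114, were all listed at 0. Members were 6 of copies 1 to 9, 7 of copies 10 to 24 and none of copies 25 to 30. The 13 members are 1 to 22 edits apart with a median of 12, and how well reads tell the copies apart was not tested.

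SNHG14 itself stood at 142 and 146 TPM in control and 153 and 151 TPM in oeDAZL (log2 fold change 0.08). Its 13 members summed to 47.7 and 42.3 TPM in control and 37.7 and 39.2 TPM in oeDAZL, a log2 ratio of -0.23 beside -0.22 for all members. Single copies went both ways, with a log2 fold change below 0 for 7 of 13, beside 65.3% of all tested genes. SNORD116-1 stood at 6.17 and 8.05 TPM against 4.86 and 4.62 TPM, and SNORD116-18 at 3.14 and 3.96 TPM against 1.08 and 2.17 TPM. SNORD116-8, a member through its control libraries alone, stood at 1.76 and 1.67 TPM against 0.0672 and 0.860 TPM. These lay lower in both oeDAZL libraries, as did SNORD116-2 and SNORD116-6 (2.85 and 3.82 TPM against 0.997 and 2.80 TPM), which makes 5 of 13 beside 38.4% of all tested genes. SNORD116-23, at 4.04 and 4.29 TPM against 4.82 and 5.23 TPM, and SNORD116-13 lay higher in both, 2 of 13 beside 16% of all tested genes. The other 6, SNORD116-7, SNORD116-9, SNORD116-14, SNORD116-15, SNORD116-19 and SNORD116-24, overlapped between the groups, and SNORD116-19, the most abundant, stood at 10.8 and 4.81 TPM in control and 7.45 and 7.71 TPM in oeDAZL.

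**Figure D3:**
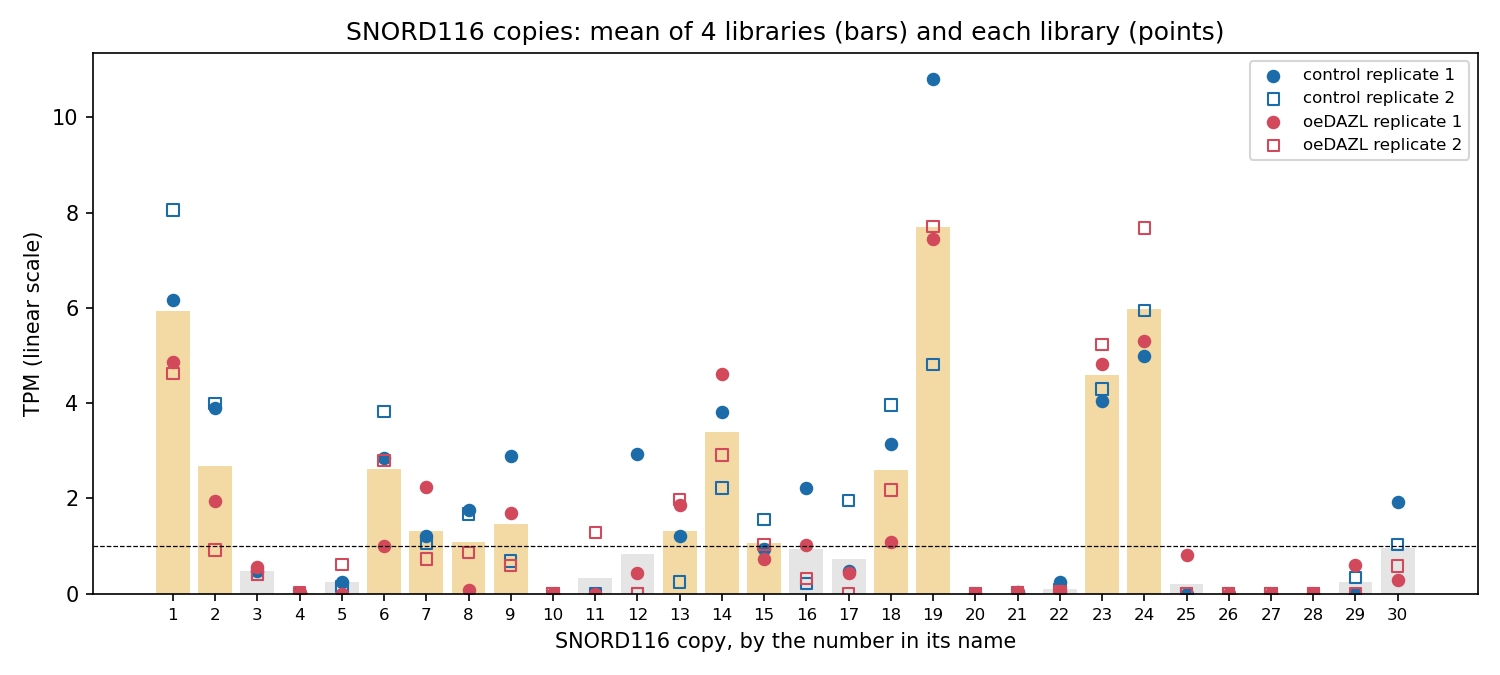
TPM of the 30 SNORD116 copies by the number in their name, with the mean of 4 libraries as bars (tan, the 13 members; grey, other copies) and each library as a point (blue, control; red, oeDAZL; filled circle, replicate 1; open square, replicate 2); the dashed line marks 1 TPM. Copies 1, 19 and 24 are the highest with means of 5.93, 7.69 and 5.98 TPM, and no copy above 24 reaches the line in its mean.

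Besides SNHG14, the 3 hosts GNL3, RPS12 and SNHG17 held 3 members each. In GNL3, the gene of the nucleolar protein nucleostemin (110 and 116 TPM in control, 128 and 125 TPM in oeDAZL), SNORD19 lay lower in oeDAZL, whereas SNORD19C (6.65 and 9.05 TPM against 7.39 and 5.31 TPM) and SNORD69 (7.98 and 9.80 TPM against 6.47 and 8.10 TPM) overlapped between the groups. In RPS12 (1891 and 1854 TPM against 1845 and 1876 TPM), SNORA33 stood at 9.99 and 10.5 TPM against 7.48 and 5.75 TPM and SNORD101 at 5.95 and 6.94 TPM against 3.79 and 3.45 TPM. Both lay lower without overlap, as did SNORD19 and 38.4% of all tested genes. SNORD100, from the same transcript, did not (6.35 and 4.95 TPM against 4.37 and 7.32 TPM). In SNHG17 (22.4 and 22.0 TPM against 25.7 and 25.7 TPM), SNORA71A was called lower, while SNORA71B (4.05 and 2.09 TPM against 2.94 and 1.09 TPM) and SNORA71C overlapped. The log2 fold change was below 0 for all 3 members of GNL3, whereas SNORD100 in RPS12 (0.01) and SNORA71C in SNHG17 (0.56) were above 0. Among all tested genes 65.3% were below 0.

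Of the 81 members, 80 lay within a host gene on the same strand, in 55 hosts, of which 44 held a single member. A single host was taken for each member, though SNORA73B, SNORA26, SNORD17, SNORA22 and SNORA15B-2 lie within another gene too. SNORA11F alone lay within a gene only of the other strand. Ribosomal protein genes were 11 of the hosts with 14 members, genes named SNHG 10 hosts with 24 members, and other protein-coding genes 29 hosts with 35 members. The median member was at 5.05 TPM in ribosomal protein hosts and 2.60 TPM in SNHG hosts, though the hosts themselves had medians of 1857 and 30.2 TPM. Across the 79 members whose host has a value, member and host TPM had a Spearman correlation of 0.19 and their log2 fold changes 0.12, both as a description over genes measured in the same libraries and often in the same host. In the median a member stood at 1.92% of the TPM of its host.

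Of the 54 hosts tested, 1 was called higher (0.126% of all tested genes were) and none lower (0.563%). At an unadjusted limma P of at most 0.05, 9 hosts were higher (5.02% of all tested genes) and 6 lower (15.2%). The median log2 fold change of the hosts was 0.02. The called host was SNHG25, which stood at 1.87 and 1.73 TPM in control and 5.24 and 4.83 TPM in oeDAZL (log2 fold change 1.11, standard error 0.17, limma adjusted p = 0.0896). Its groups did not overlap, and it contains SNORD104, which also lay higher in both oeDAZL libraries and stood above its host in mean TPM (361% of it). Of the 79 members, 73 had a fold change larger in size than that of their host and 46 the same sign. Members had a median standard error of 0.27, beside 0.12 over all tested genes. The count of 73 thus does not show that members changed apart from their hosts. PABPC4, the host of SNORA55, stood at 217 and 211 TPM against 189 and 193 TPM. It lay lower without overlap but by far less than SNORA55 (log2 fold change -0.16, limma adjusted p = 0.182). HSPA9, the host of SNORD63, stood at 145 and 155 TPM against 161 and 155 TPM.

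**Figure D4:**
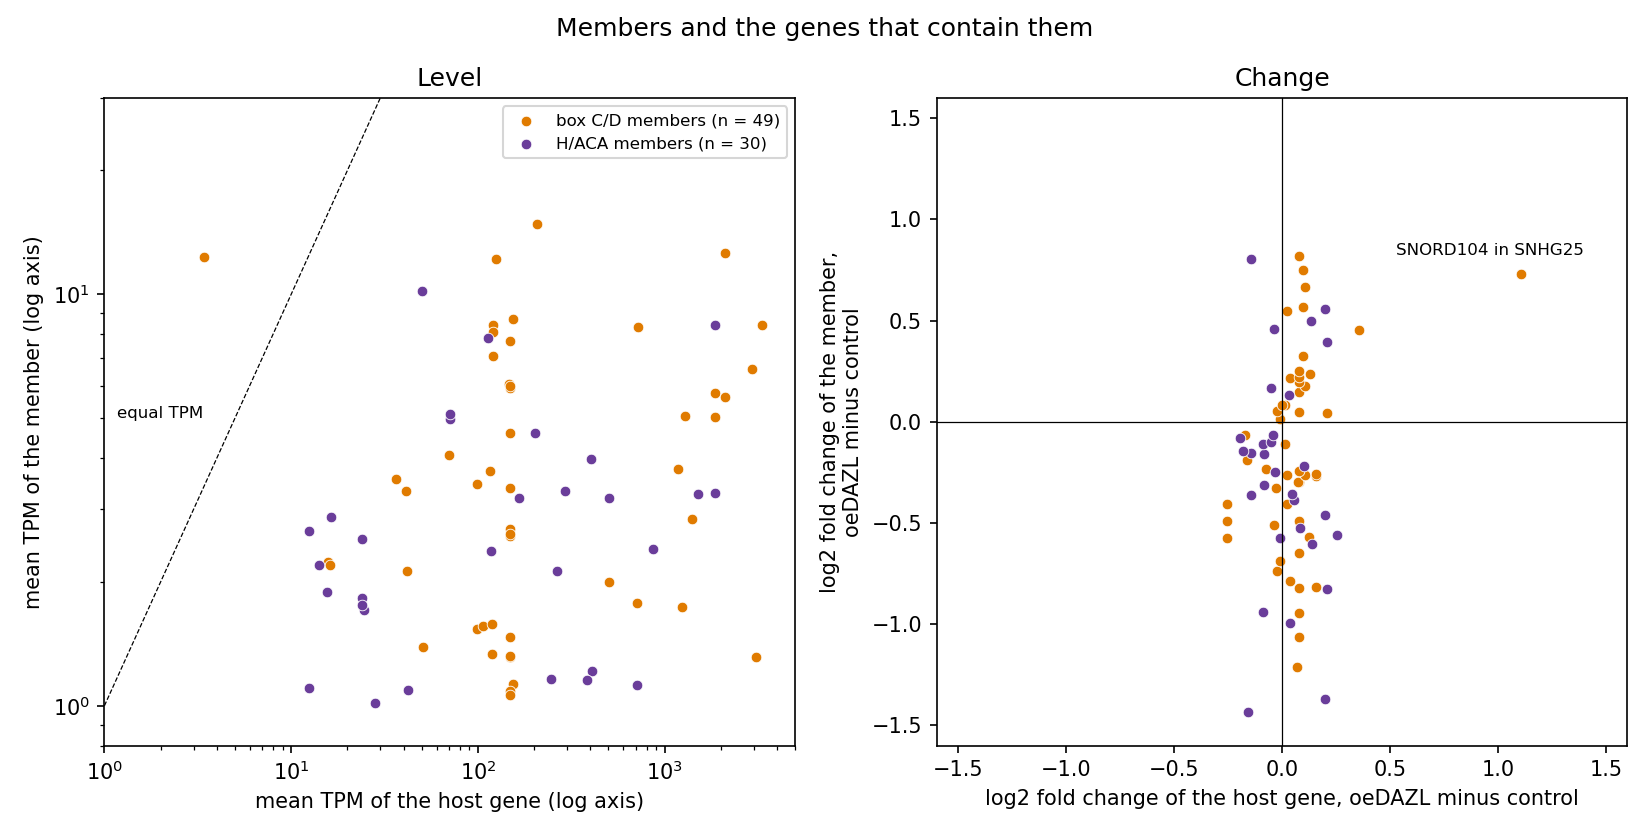
Mean TPM of members against mean TPM of their host on log axes (left; the dashed line marks equal TPM) and log2 fold change of members against that of their host on the log2(TPM + 1) scale (right), for 49 box C/D (orange) and 30 H/ACA (purple) members. SNORD104 alone lies above the line of equal TPM, and host changes stay between -0.25 and 1.11 while member changes reach from -1.43 to 0.82.

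None of the genes for proteins that build and mature snoRNPs was called. Of the 26 tested genes of 4 lists, 4 were higher (5.02% of all tested genes were) and none lower (15.2%) at an unadjusted limma P of at most 0.05, and none passed a fold change of 2 in either direction; the median log2 fold change was 0.08. The count depended on the fit, since median-of-ratios scaling put 5 of the 8 core genes at such a P in place of 2. The replicate block and the fit without trend each left out SNU13. With single libraries left out, the log2 fold change ranged from 0.21 to 0.30 for DKC1 and from 0.13 to 0.20 for SNU13. Among the box C/D core proteins, FBL, the methyltransferase fibrillarin, stood at 307 and 300 TPM in control and 301 and 303 TPM in oeDAZL. NOP56 and NOP58, which hold the complex together, averaged 245 and 119 TPM. SNU13, which binds the kink-turn of the C and D boxes, stood at 113 and 108 TPM against 122 and 125 TPM (log2 fold change 0.17, limma adjusted p = 0.196). Among the H/ACA core proteins, DKC1, the pseudouridine synthase dyskerin, stood at 69.6 and 65.3 TPM against 83.5 and 77.9 TPM (log2 fold change 0.25, limma adjusted p = 0.144). NHP2, NOP10 and GAR1 averaged 142, 115 and 40.4 TPM. The core genes of both classes thus differed by far less than a fold change of 2, and SNU13, DKC1, NOP58, NOP10 and GAR1 lay higher in both oeDAZL libraries than in both control libraries, as did 16% of all tested genes.

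Among the 10 assembly factors, RUVBL1, an ATPase of the R2TP complex, stood at 90.5 and 92.8 TPM against 108 and 106 TPM, and NOLC1, a nucleolar and Cajal body chaperone of snoRNPs, at 111 and 113 TPM against 136 and 125 TPM. Both lay higher in oeDAZL at an unadjusted limma P of 0.00725 and 0.0132 and with adjusted p = 0.130 and 0.158. NAF1, which escorts H/ACA proteins to the RNA, stood at 18.7 and 17.8 TPM against 16.9 and 15.6 TPM. NAF1 and the remaining 7 were not past an unadjusted P of 0.05. None of the 8 genes of processing, cap and localization passed it either. DBR1, which opens the intron lariats from which snoRNAs are cut, stood at 20.2 and 24.3 TPM against 21.8 and 20.04 TPM, and EXOSC10 of the exosome, which trims their ends, at 118 and 112 TPM against 110 and 108 TPM.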

How the data were processed

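RNA sequencing of 2 control and 2 oeDAZL libraries was used. Expression was in TPM, as deposited by the authors. The study's methods and the submitters' notes say that reads were trimmed with Trim Galore, mapped to hg38 with HISAT2 2.1.0, kept if uniquely mapped, and quantified with StringTie 2.1.4. The annotation release, strand setting and library kit are not given in the sources used here, so host, antisense and snoRNA reads may not be told apart. TPM keeps no depth, so no counting error was computed and 0 means listed at 0. From 65003 entries, 45 pseudoautosomal copies and 18 repeats were left out.

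Log2(TPM + 1) was fitted with limma 3.58.1 in R 4.3.3 (trend, no covariates) over the 16687 genes averaging 1 TPM or more, and the code was tested on simulated data. An exact permutation test of 2 against 2 libraries cannot give a p under 0.333. Hosts, positions and sequences came from GENCODE release 44 (all 81 members matched), edit distances from edlib 1.3.9.post1. Named genes were the 8 members with the highest mean, all called members, the 5 largest rises and falls without overlap, 3 genes on either side of the threshold, SNORD3A, SNORD118, SNORD13 and SNORD14 genes, members of the 2 hosts with the most members (4 hosts, since 3 tied for the second place), the snoRNP lists, DAZL, and the 5 members with the largest replicate difference. PABPC4, HSPA9, SNHG25, the genes beside members in a host, EEF1B2 and the noncoding RNAs set beside SNORD3A were named after their values were seen. The members and lists were chosen with earlier results of these data known. Alternatives changed the pseudocount, filter, scaling, block, trend, adjustment and libraries.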

Additional observations from a re-analysis of the deposited data

How the results depend on the processing

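With a pseudocount of 0.1, 7 members were called lower in place of 4, and 55 of all tested genes were called higher and 267 lower in place of 21 and 94. The median replicate difference of members was 0.62 in place of 0.44.

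With genes averaging 5 TPM or more, 23 members were tested. The 4 called members and the called host lie below that level and were not tested, so the counts of 0 members called lower and 0 hosts called higher are no test of those calls, and the median log2 fold change of H/ACA members was -0.39 in place of -0.19. By adjusted p, 0 members were called lower and 0 hosts higher.

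Under quantile normalization 1 member was called higher in place of 0, and the median log2 fold change was -0.073 over members, -0.090 over box C/D and -0.042 over H/ACA members. All tested genes split into 41 higher and 52 lower (44.1% higher, in place of 18.3%). Under median-of-ratios scaling the median over H/ACA members was -0.12, the log2 ratio of summed TPM was -0.11 for box C/D and -0.22 for H/ACA members, and FBL stood at 0.078 in place of -0.01. Without mitochondrial genes FBL stood at 0.011.

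Leaving out each library in turn gave 1 to 4 members called higher, with 4 without oeDAZL replicate 2, and 4 to 9 called lower, with 9 without oeDAZL replicate 2. The median log2 fold change of box C/D members ranged from -0.30 (without oeDAZL replicate 2) to -0.13 (without oeDAZL replicate 1), and that of H/ACA members from -0.25 (without oeDAZL replicate 2) to -0.10 (without control replicate 2). The log2 ratio of summed TPM of box C/D members ranged from -0.25 (without oeDAZL replicate 2) to -0.14 (without oeDAZL replicate 1). FBL was lowest when control replicate 2 was left out (-0.023) and highest when control replicate 1 was (0.012), and NHP2 ranged from -0.048 (without oeDAZL replicate 1) to 0.11 (without oeDAZL replicate 2). Calls over all tested genes moved as well, to 35 higher and 85 lower without control replicate 1, 87 and 235 without control replicate 2, 44 and 131 without oeDAZL replicate 1 and 45 and 187 without oeDAZL replicate 2. A group left with 1 library adds no spread to these fits.

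With the replicate block the same 4 members were called lower and 0 higher. Replicate numbers are not a stated pairing.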
